A study of Homo sapiens with 6 samples.

Results

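Collagen genes were taken from the merged transcript models of the series as every gene name on chromosomes 1 to 22 and X made of COL, a chain-type number, A and a chain number. The rule found 44 of 25088 gene names, in 44 loci, with 90 transcript models. The 6 libraries were made from RNA of EndoC-βH1, an established line of human pancreatic beta cells. In 3 libraries a lentiviral short hairpin RNA (shRNA) against the promoter of INS, the insulin gene, was induced with doxycycline at 1 mg/mL for 7 days. The 3 negative control libraries carried the same construct and received no doxycycline. Both groups therefore shared the construct, doxycycline went only to the induced group, and the labels list no group with doxycycline and no hairpin. The deposited file joins all 6 libraries and holds exon positions without any abundance. The shRNA-induced and negative control groups could not be compared, the level of INS and of beta cell markers could not be checked, and sequencing depth is unknown. A reference model in the file is no measure of expression, so the results describe gene structure and the models the assembly added.

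Collagens are the main proteins of the extracellular matrix. Each chain carries stretches of the triplet glycine, any residue, any residue (Gly-X-Y), and chains wind by threes into a triple helix in which only glycine fits at the centre. In many collagen genes the triplet stretch is cut into short exons that each hold a whole number of triplets. A triplet takes 9 bases, so exon lengths in units of 9 bases keep the repeat in register. In islets, type IV collagen lies in the basement membranes around the capillaries next to beta cells.

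The repeat is visible in the exon sequences themselves. The exons below are the first of 45, 54, 99 and 108 bases in COL1A1, which encodes a chain of type I collagen, the main collagen of bone, skin and tendon. They were read on hg19 from the minus strand of chromosome 17, and capitals mark the glycine codons.
COL1A1 exon 7, 45 bases, chr17:48275522-48275566: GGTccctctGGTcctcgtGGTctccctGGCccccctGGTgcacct
COL1A1 exon 8, 54 bases, chr17:48275310-48275363: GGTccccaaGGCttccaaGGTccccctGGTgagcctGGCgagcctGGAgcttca
COL1A1 exon 17, 99 bases, chr17:48272928-48273026: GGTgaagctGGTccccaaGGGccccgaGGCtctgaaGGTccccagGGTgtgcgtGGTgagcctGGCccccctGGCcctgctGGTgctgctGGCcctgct
COL1A1 exon 21, 108 bases, chr17:48272082-48272189: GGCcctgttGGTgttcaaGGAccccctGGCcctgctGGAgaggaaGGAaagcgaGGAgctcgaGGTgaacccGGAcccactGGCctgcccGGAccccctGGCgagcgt
These exons hold 5, 6, 11 and 12 triplets. Each begins with a whole glycine codon and ends with the last base of a triplet.

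Exons of other collagen classes were set beside them to show that the register is not the same everywhere. Exons of 54 bases from fibrillar and fibril-associated collagens begin with a whole glycine codon, as does an exon of 36 bases of COL7A1, the chain of the anchoring fibrils below the skin's basement membrane. In COL4A1, a chain of the basement membrane network, and in COL17A1, a membrane-spanning collagen of hemidesmosomes, the exons shown begin inside a codon. The capital letters at the start of those exons are the last bases of a glycine codon whose first base ends the preceding exon. All are on hg19.
COL2A1 exon 6, 54 bases, chr12:48391654-48391707, minus strand: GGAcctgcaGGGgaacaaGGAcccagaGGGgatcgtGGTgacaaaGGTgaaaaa
COL9A1 exon 11, 54 bases, chr6:70984422-70984475, minus strand: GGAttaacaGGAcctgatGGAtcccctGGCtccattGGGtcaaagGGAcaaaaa
COL7A1 exon 33, 36 bases, chr3:48622343-48622378, minus strand: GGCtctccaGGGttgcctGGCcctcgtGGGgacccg
COL4A1 exon 20, 36 bases, chr13:110853201-110853236, minus strand: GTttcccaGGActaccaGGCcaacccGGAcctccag
COL17A1 exon 25, 36 bases, chr10:105811239-105811274, minus strand: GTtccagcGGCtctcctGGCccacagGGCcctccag

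Collagen genes were rich in exons. For each gene the reference transcript (a model that matched a RefSeq transcript) with the most exons was used. The median was 48 exons over the 44 collagens and 6 over the other gene names. At least 20 exons were found in 40 of 44 collagens (90.9%), against 10.1% of the other gene names. At least 50 exons were found in 20 collagens (45.5%), against 0.623% of the others. COL7A1 had the most, 118, and only 5 of 25086 gene names with a reference transcript had more. COL16A1 followed with 71, then COL5A3 and COL11A1 with 67 each.

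Exon number is given by class, and the ranges of several classes overlapped. Among the fibrillar collagens, which build cross-striated fibrils, COL1A1 and COL3A1 had 51 exons, COL1A2 52, COL2A1 and COL5A2 54, COL24A1 60, COL27A1 61, COL5A1 and COL11A2 66, and COL5A3 and COL11A1 67. Among the basement membrane chains, COL4A1 and COL4A3 had 52, COL4A5 51, COL4A2 and COL4A4 48, and COL4A6 46. The beaded filament chains of type VI collagen ranged from 28 exons in COL6A2 to 44 in COL6A3, with 35 in COL6A1, 36 in COL6A6 and 42 in COL6A5. The fibril-associated collagens (FACIT) and their relatives, which decorate or link fibrils, spread most widely. COL21A1 had 30, COL9A2 and COL9A3 had 32, COL20A1 36, COL9A1 38, COL14A1 48, COL19A1 51, COL22A1 65, COL12A1 66 and COL16A1 71. Among the transmembrane collagens, COL23A1 had 29, COL25A1 37, COL13A1 40 and COL17A1 56. The multiplexins COL15A1 and COL18A1, whose ends are the source of angiogenesis inhibitors, had 42 and 43. The 43 of COL18A1 counts a stretch of 9 bases as an intron, as described below. COL26A1 had 13 and COL28A1 35.

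The short chain collagens were the exception. COL8A2 had 2 exons, COL10A1 3 and COL8A1 5. COL10A1 encodes the collagen of hypertrophic growth plate cartilage, and type VIII collagen belongs to the membrane under the corneal endothelium. Their helices were not cut into repeat-sized pieces. COL8A1 had 154 Gly-X-Y triplets and COL8A2 157, and the longest exon was 2504 bases in COL8A1, 4245 bases in COL8A2 and 3040 bases in COL10A1. COL10A1 also had 154 triplets. None of the 4 internal exons of these genes was of a repeat size.

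**Figure D1:**
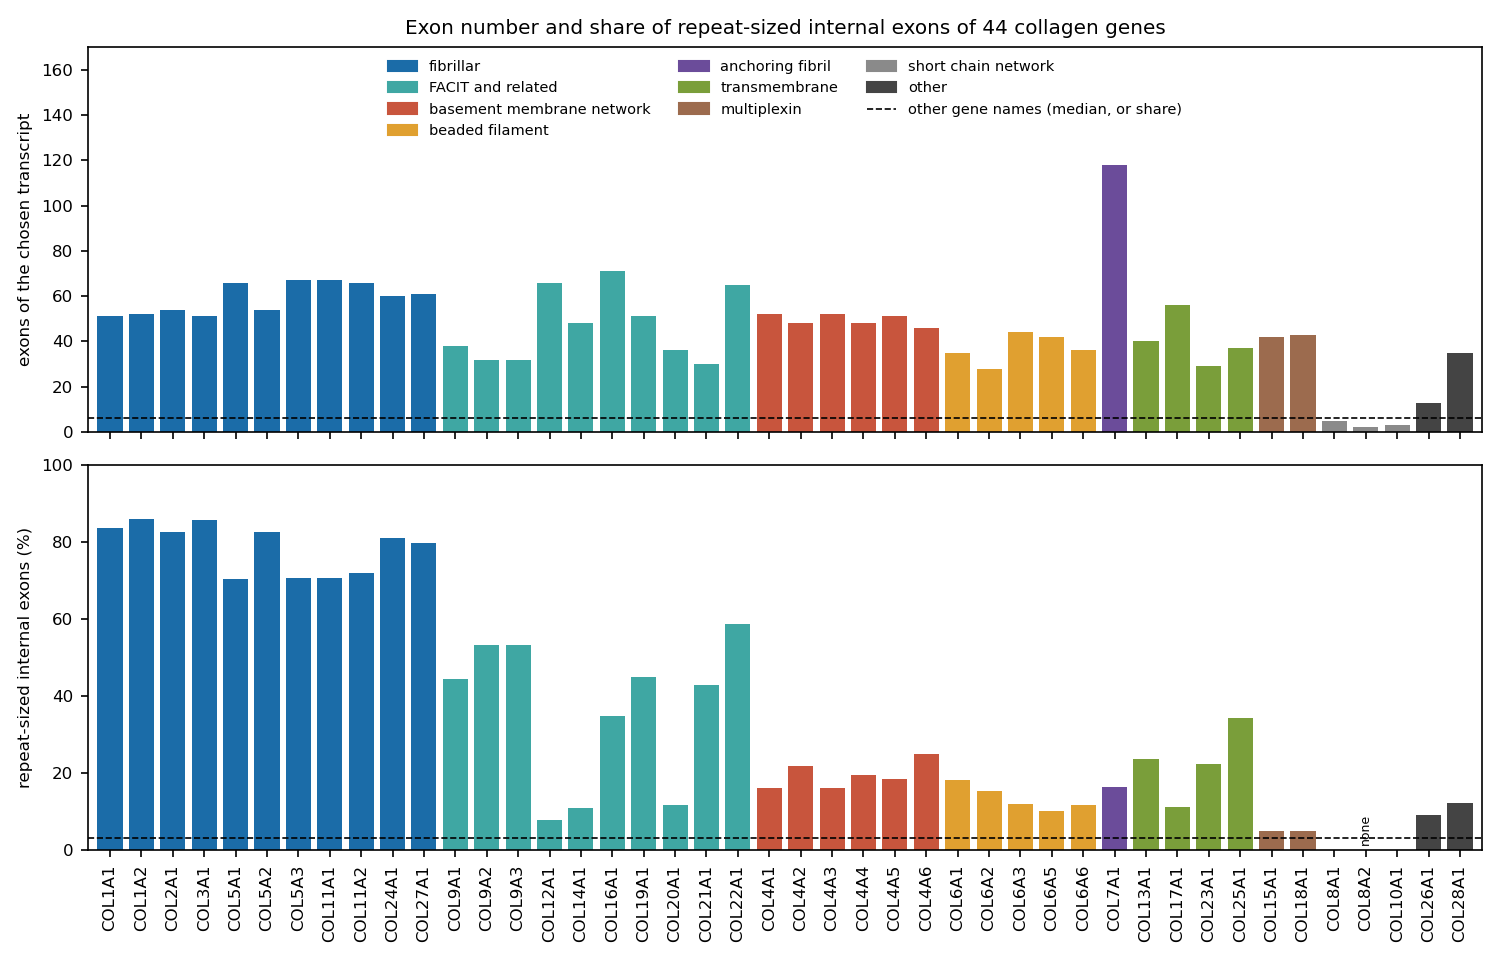
Upper panel, exons of the chosen reference transcript of each of the 44 collagen genes; lower panel, percent of its internal exons of 45, 54, 99, 108 or 162 bases. Bars are coloured by class, and the dashed lines give the other gene names, a median of 6 exons and a share of 2.99%. COL7A1 stands highest in the upper panel with 118 exons, the 11 fibrillar genes lie between 70.3% and 86% in the lower panel, and COL8A2, marked none, has no internal exon.

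Repeat sizes were taken as 45, 54, 99, 108 and 162 bases, and internal exons as all but the first and last. Of 1935 internal collagen exons, 785 were of a repeat size, a share of 40.6% with an exact binomial (Clopper-Pearson) 95% interval of 38.4% to 42.8%. The share over 174475 internal exons of the other gene names was 2.99%. It was 3.1% over other gene names with at least 20 exons. These intervals cover counting error only, since the exons of a gene, and of related genes, are not independent. Lengths that are any multiple of 9 bases made up 63.2% of the collagen exons and 13.3% of the other exons. Lengths that are any multiple of 3 bases, which leave the reading frame as it was, made up 86.1% of the collagen exons and 39.5% of the others.

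A single size carried most of the difference. Exons of 54 bases numbered 474 in the collagens (24.5%) and made up 0.446% of the other exons. Exons of 45 bases numbered 159, and those of 108 bases numbered 100. There were 39 exons of 99 bases and 13 of 162 bases. Exons of 45 bases made up 8.22% of collagen exons and 0.275% of other exons, those of 108 bases 5.17% and 0.865%, and those of 99 bases 2.02% and 0.864%. At 162 bases the shares were 0.672% and 0.539%. Sizes outside the repeat set were also frequent. There were 116 exons of 36 bases (5.99%, against 0.202% of other exons), 92 of 63 bases (4.75% against 0.51%) and 54 of 27 bases (2.79% against 0.118%).

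**Figure D2:**
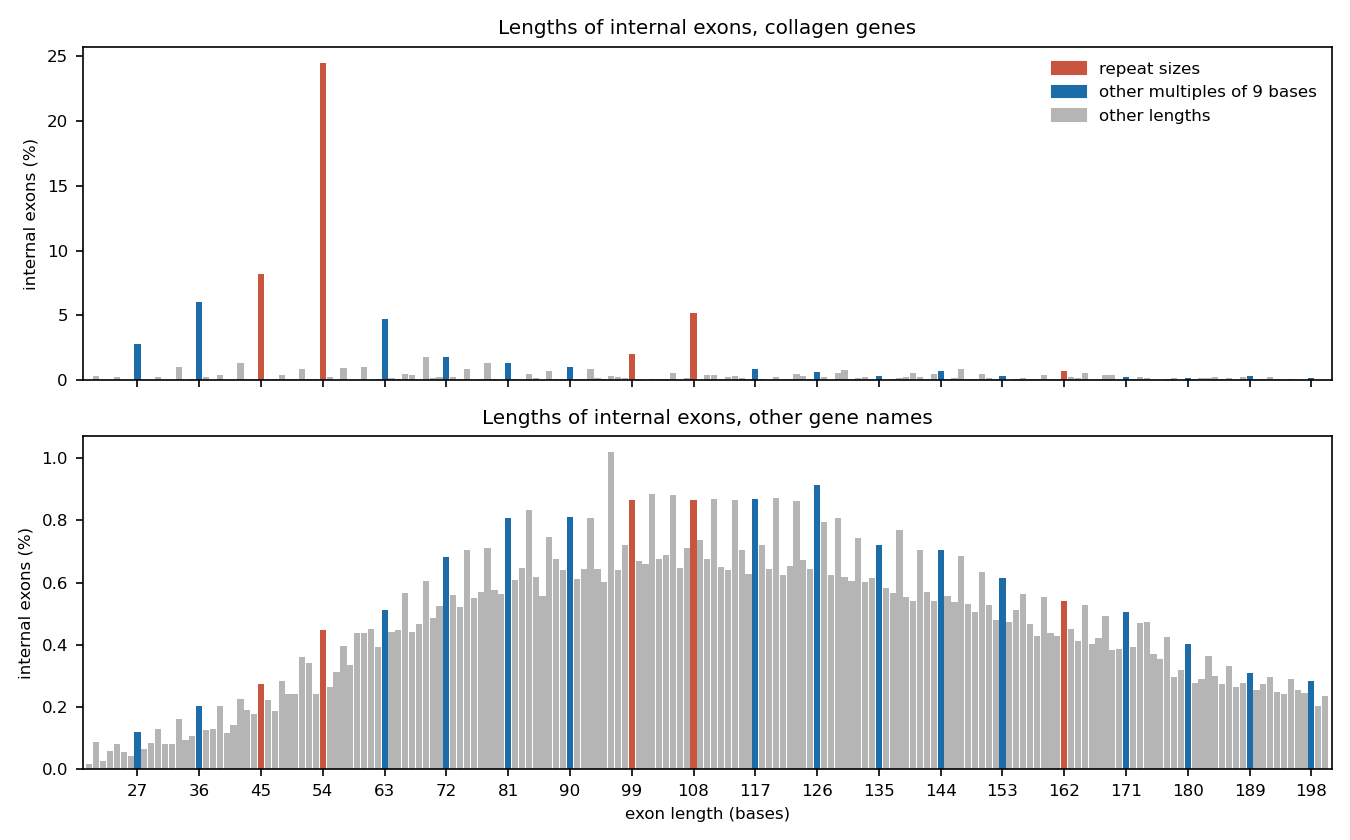
Percent of internal exons (vertical axes, of different scale) at each length from 20 to 200 bases, for the collagen genes above and the other gene names below. Colours mark the repeat sizes, other multiples of 9 bases and other lengths; the collagen peak at 54 bases reaches 24.5%, against 0.446% in the other gene names.

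The share of repeat-sized exons was highest in the fibrillar class, and the ranges of several other classes overlapped. In the fibrillar class it was 78% of 627 internal exons (95% interval 74.5% to 81.2%). COL1A2 had the highest share, 86% (43 of 50). COL3A1 had 85.7%, COL1A1 83.7%, and COL2A1 and COL5A2 82.7% each. COL24A1 had 81% and COL27A1 79.7%. The lower end of the class was formed by COL11A2 with 71.9%, COL5A3 and COL11A1 with 70.8% each, and COL5A1 with 70.3%. No gene of any other class reached this range. This lead depends on the chosen sizes, which leave out 36, 27 and 63 bases, sizes more frequent in other classes. For any multiple of 9 bases the fibrillar share was 84.2%, and the gap was narrower. COL5A3 was then lowest in the class with 75.4%, and COL23A1 highest outside it with 74.1%.

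The FACIT class was the most mixed, with 35% over the class (30.6% to 39.6%). COL22A1, a collagen of tissue junctions, had 58.7%. The 3 chains of type IX collagen, which coats cartilage fibrils, had 53.3% in COL9A2 and COL9A3 and 44.4% in COL9A1. COL19A1 had 44.9%, COL21A1 42.9% and COL16A1 34.8%. In COL20A1, COL14A1 and COL12A1 the share was 11.8%, 10.9% and 7.81%. These last genes encode long chains with a short helix: triplets covered 11.4% of the reading frame in COL20A1, 14% in COL14A1 and 8.23% in COL12A1, against 85.8% in COL9A2.

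Outside these classes, repeat sizes were a minority of internal exons. The share was 21.4% in the transmembrane collagens, with 34.3% in COL25A1, 23.7% in COL13A1, 22.2% in COL23A1 and 11.1% in COL17A1. It was 19.3% in the basement membrane chains, between 16% in COL4A1 and COL4A3 and 25% in COL4A6. COL4A2 had 21.7%, COL4A4 19.6% and COL4A5 18.4%. In COL7A1 it was 16.4%. It was 13.1% in the beaded filament class, with 18.2% in COL6A1, 15.4% in COL6A2, 11.9% in COL6A3, 11.8% in COL6A6 and 10% in COL6A5. COL28A1 had 12.1% and COL26A1 9.09%. The multiplexins were lowest among genes with such exons, with 5% in COL15A1 and 4.88% in COL18A1.

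Several of these classes used other multiples of 9. COL7A1 had 27 exons of 36 bases, 12 of 45 bases and 5 of 54 bases, and 67.2% of its 116 internal exons were multiples of 9. The beaded filament chains had 36 exons of 63 bases against 14 of 54 bases, with 7 or 8 of 63 bases in each of the 5 genes. The transmembrane class had 27 exons of 27 bases, of which COL13A1 had 9, COL23A1 8 and COL25A1 6. Multiples of 9 made up 66.9% of the internal exons of the transmembrane class and 52.6% of the beaded filament class.

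**Figure D3:**
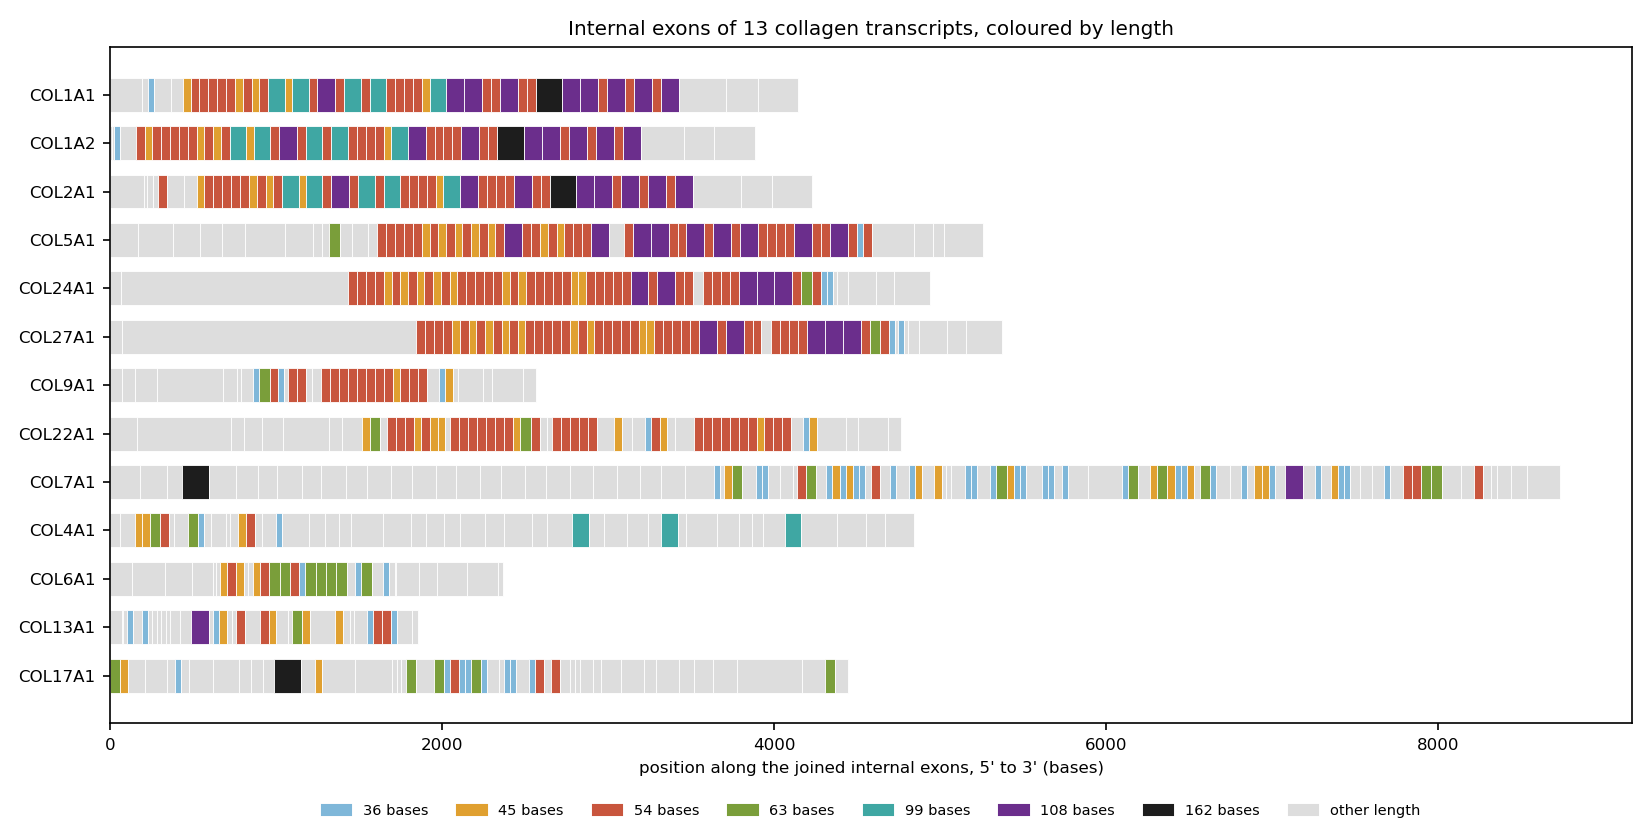
Internal exons of 13 collagen transcripts laid end to end from 5' to 3', to scale in bases, coloured by exon length. COL1A1, COL1A2 and COL2A1 show nearly the same order of 45, 54, 99, 108 and 162 bases, with 21 exons of 54 bases in COL1A1 and 24 in each of COL1A2 and COL2A1; COL24A1 and COL27A1 repeat each other; COL7A1 is dotted with exons of 36 bases, of which it has 27, and COL6A1 with exons of 63 bases, of which it has 7.

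Within the fibrillar class 3 exon plans were seen. In COL1A1, COL1A2, COL2A1, COL3A1 and COL5A2 there were 5 exons of 99 bases and 1 of 162 bases in each gene. COL5A1, COL5A3, COL11A1 and COL11A2 had none of either size. COL24A1 and COL27A1 also had none, and each had 33 exons of 54 bases, 9 of 45 and 5 of 108. Of all 39 collagen exons of 99 bases, the fibrillar class had 25 and the basement membrane class 12.

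The position of exon boundaries within the helix followed the same grouping. Boundaries were counted back from the end of each gene's longest unbroken run of triplets, and each pair of genes was set to the whole-triplet shift, of at most 10 triplets, that gave the most shared boundaries. The run was 338 triplets in COL1A1, 339 in COL1A2, COL2A1 and COL5A2, and 343 in COL3A1. COL2A1 shared all 43 of its boundaries with COL1A2 and with COL5A2, and 42 of 43 with COL3A1. COL5A1 shared all 48 of its boundaries with COL11A1, with COL11A2 and with COL5A3. COL24A1 and COL27A1, with runs of 216 and 217 triplets, shared 36 of 36. Between the plans fewer boundaries coincided: COL2A1 shared 35 of its 43 with COL5A1 and 36 of 43 with COL11A1. With COL24A1 and COL27A1, whose runs are shorter, COL2A1 shared 9 of 43 and COL5A1 13 of 48. These 2 genes had 330 triplets each, but only 36 boundaries within the longest run. The end of that run may not be the same place in the helix, so these low counts may come from the method. In the order of exon sizes, described below, COL2A1 had 56.4% with COL24A1 and 55.2% with COL5A1.

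COL1A1 differed from COL1A2 by a single boundary. All 42 boundaries of COL1A1 lay at a boundary of COL1A2, which had 43. The boundary that COL1A1 lacked fell inside its exon 33, of 108 bases, where COL1A2 had exons 33 and 34 of 54 bases each. These exons are printed because they show the same stretch of the helix in an uncut and a cut form, with glycine codons in capitals.
COL1A1 exon 33, 108 bases, chr17:48268178-48268285, minus strand of hg19: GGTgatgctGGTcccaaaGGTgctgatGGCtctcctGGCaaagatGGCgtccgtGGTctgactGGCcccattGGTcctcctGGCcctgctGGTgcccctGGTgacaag
COL1A2 exon 33, 54 bases, chr7:94047811-94047864, plus strand of hg19: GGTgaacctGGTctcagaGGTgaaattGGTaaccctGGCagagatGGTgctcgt
COL1A2 exon 34, 54 bases, chr7:94048810-94048863, plus strand of hg19: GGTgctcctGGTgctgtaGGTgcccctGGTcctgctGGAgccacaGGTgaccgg
The 12 triplets of the COL1A1 exon matched 6 and 6 in COL1A2. On the chromosome the 2 exons of COL1A2 lie apart, with an intron between them.

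The order of exon sizes was then compared over all 41 collagens with at least 10 internal exons. The measure was the largest number of internal exons of the same length in the same order, as a percent of the mean internal exon number of the 2 genes. It was computed for 820 pairs, which share genes, so it is given as a description. The median was 54.7% over the 133 pairs within a class and 15.4% over the 687 pairs between classes. The closest partner was of the same class for 34 of 41 genes. COL7A1, the only gene of its class, could have no such partner. Genes with many exons of 1 length can also score high by this measure. COL24A1 and COL27A1 were most alike at 94%, followed by COL2A1 and COL5A2 at 90.4%, and COL9A1 and COL9A2 at 87.9%. COL5A1 was closest to COL11A1 (86.8%). Of the other chains of its own collagen type, COL5A3 reached 80.6% with it and COL5A2 55.2%.

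Type IV collagen fell into 2 sets in this measure. Among COL4A1, COL4A3 and COL4A5 the likeness was 68.7% to 78.8%, and among COL4A2, COL4A4 and COL4A6 it was 54.3% to 64.4%. Across the sets it was 21.1% to 25.8%. COL7A1 had no close partner: its highest value was 31.4%, with COL16A1. COL26A1 had the lowest closest value, 13.1%, and COL17A1 reached 27.6%. COL22A1 was closest to a fibrillar gene, COL24A1 (56.2%), and the 2 genes had 28 and 33 exons of 54 bases.

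**Figure D4:**
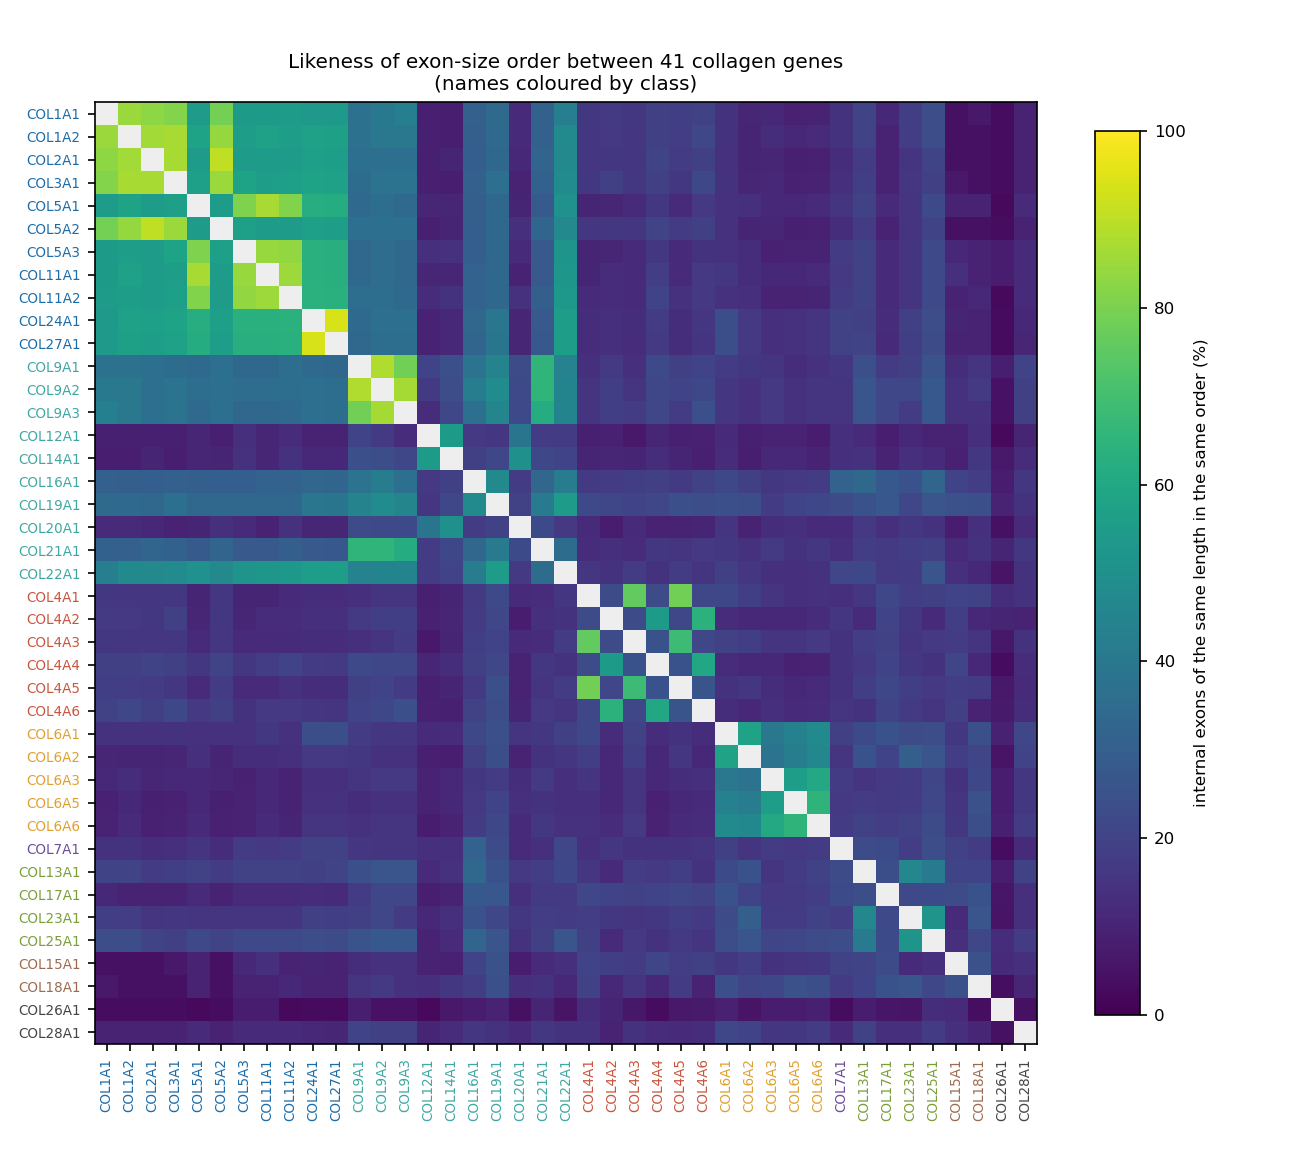
Likeness of exon-size order between 41 collagen genes, as percent of internal exons of the same length in the same order, with names coloured by class. Bright blocks mark the fibrillar genes, COL9A1 to COL9A3 and the type VI chains, and the type IV block is a checkerboard in which COL4A1 and COL4A5 reach 78.8% and COL4A1 and COL4A2 22.9%.

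Where each exon cuts the repeat was read from the longest ATG reading frame on the hg19 sequence. A triplet exon was defined as an internal exon that lies whole in the frame and codes at least 3 Gly-X-Y triplets in a row. There were 1429 such exons in 41 collagens, and the short chain genes had none. Of these, 1163 (81.4%) began with a whole glycine codon, 165 (11.5%) began inside a glycine codon, and 101 began elsewhere. Of the triplet exons, 53.9% were of a repeat size and 78.7% were multiples of 9 bases. Other gene names were read where the chosen transcript was coding and had at least 3 exons. In these, 2120 of 147140 internal exons in the frame coded at least 3 triplets in a row, in 1726 of 16130 gene names (10.7%). In the collagens it was 1429 of 1905. Of the 2120, 34 (1.6%) began with a whole glycine codon. At least 5 triplets in a row were coded by 1160 exons of the collagens and by 136 exons of 98 other gene names.

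Glycine came first in nearly all fibrillar triplet exons: 528 of 549 (96.2%) began with a whole glycine codon, and 0 with a split one. In COL1A1 all 44 and in COL1A2 all 45 did so. In COL7A1 it was 76 of 79, and in the beaded filament chains 86 of 97.

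Basement membrane collagens differed. Of their 250 triplet exons, 108 (43.2%) began with a whole glycine codon and 130 (52%) with a split one. Each of the 6 genes had both kinds: 20 whole and 23 split in COL4A1, 17 and 22 in COL4A2, 18 and 24 in COL4A3, 17 and 23 in COL4A4, 19 and 17 in COL4A5, and 17 and 21 in COL4A6. The COL4A5 counts come from a frame of 1299 residues, against 1685 in its other reference transcript, as described below, so its balance is uncertain. The helices of these chains were also interrupted often. COL4A4 had 27 separate runs of triplets and COL4A1 22, with a longest run of 45 and 40 triplets, against 338 in COL1A1. In COL17A1 all 30 triplet exons began after the first base of a codon, 16 of them inside a glycine codon.

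**Figure D5:**
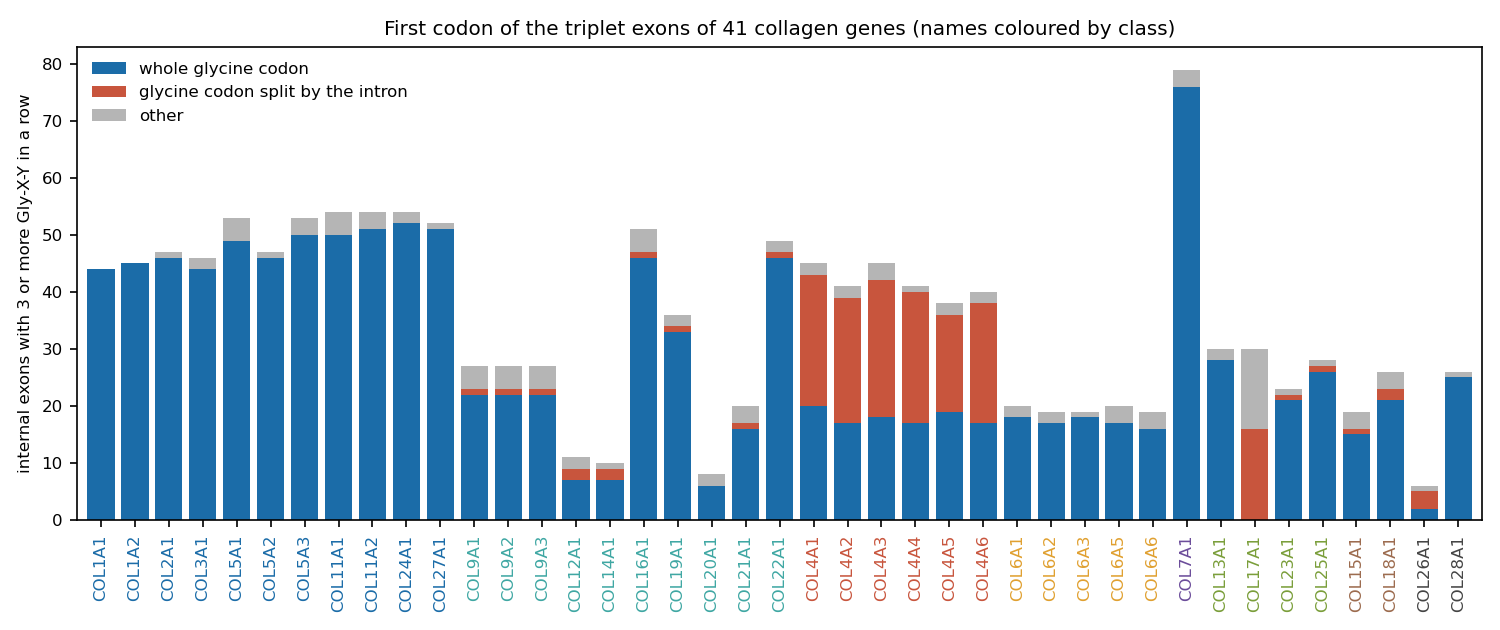
Number of triplet exons of each of 41 collagen genes by the codon they begin with, stacked; names are coloured by class. Whole glycine codons fill nearly the whole bar in the fibrillar genes, the 6 type IV genes are divided between whole and split codons, and COL17A1 has 16 split ones and no whole one.

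Codon phase was also counted without reference to glycine, over exons that include the triplet exons. Of 1905 internal collagen exons inside the frame, 75.4% began with a whole codon, against 45.5% of those of other gene names. In 70.1% an exon both began with a whole codon and had a length that is a multiple of 3, against 22.5% of the others. Of the 1437 collagen exons that began with a whole codon, 1226 were triplet exons. The phase share therefore largely repeats the count of triplet exons.

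The glycine codons themselves differed between genes. Over 11018 glycine codons of triplets, GGA made up 34.5%, GGT 25.4%, GGC 22.7% and GGG 17.5%. In COL1A2 and COL1A1 GGT made up 52.8% and 49%, and in COL1A1 GGG made up 2.82%. In COL8A2 GGG made up 40.8%.

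Collagen genes also stood in pairs on the chromosomes. A head-to-head pair was defined as 2 gene names on opposite strands whose outermost starts diverge and lie at most 1000 bases apart. Of the 44 collagens, 6 were in such a pair (13.6%, 95% interval 5.17% to 27.4%), against 10.3% of the other gene names, a share that the interval includes. All 3 pairs joined 2 type IV genes. COL4A1 and COL4A2, which encode the chains found in nearly all basement membranes, had 134 bases between their starts on chromosome 13. COL4A4 and COL4A3, chains of the kidney glomerular basement membrane, had 5 bases between them on chromosome 2. COL4A6 and COL4A5 had 346 bases between them on chromosome X. Over all 1312 such pairs in the file the median was 138 bases, and 16 pairs had at most 5. Each pair held a gene of each of the 2 type IV sets described above.

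The distance on chromosome X rests on 1 of the 5 reference transcripts of COL4A6. This transcript starts at position 107682727, 346 bases from the start of COL4A5, and the other 4 start at 107681660, 1413 bases from it, a distance that would not meet the limit of 1000 bases. Of the joined models of COL4A6, 2 begin at the outer start and 1 at the inner start.

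The stretches between the starts are printed because both genes of a pair read away from them. Capitals mark matches to CCAAT and GGGCGG on either strand (ATTGG and CCGCCC on the printed strand); TATAAA and its reverse complement were also searched. The matches do not overlap.
COL4A1 and COL4A2, all 134 bases between the starts, chr13:110959497-110959630, plus strand of hg19: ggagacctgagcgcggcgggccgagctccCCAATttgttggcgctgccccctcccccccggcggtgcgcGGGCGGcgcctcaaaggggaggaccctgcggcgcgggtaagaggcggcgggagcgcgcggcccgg
COL4A6 and COL4A5, 300 of the 346 bases between the starts, chrX:107682751-107683050, plus strand of hg19: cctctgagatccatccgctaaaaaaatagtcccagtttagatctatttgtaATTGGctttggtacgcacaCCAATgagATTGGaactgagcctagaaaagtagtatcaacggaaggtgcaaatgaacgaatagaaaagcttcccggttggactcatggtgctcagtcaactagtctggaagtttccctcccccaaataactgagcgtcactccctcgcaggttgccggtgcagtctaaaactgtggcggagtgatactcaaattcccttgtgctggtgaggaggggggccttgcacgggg
The COL4A1 and COL4A2 stretch had 79.1% G and C, with 1 match to CCAAT and 1 to GGGCGG. The COL4A6 and COL4A5 stretch had 49% G and C, with 3 matches to CCAAT. No TATAAA was found in either. Around the starts of COL4A4 and COL4A3, a window of 55 bases that takes in the 5 bases between them, not printed here, had no match to any of the 3 motifs. In windows of the same length and place over 25228 gene starts of the file, CCAAT was found in 22.6% of the windows placed as for COL4A2 and 36.2% of those placed as for COL4A5. GGGCGG was found in 38.1% and 44.6% of these windows, and TATAAA in only 5.98% and 12.2%. In windows placed as for COL4A3, which are shorter, the shares were 7.45% for CCAAT, 19.7% for GGGCGG and 2.43% for TATAAA. A match describes letters only.

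Other collagens were neighbours without sharing a start. COL3A1 and COL5A2 lay tail to tail on chromosome 2 with 19.2 kb between them, and COL19A1 and COL9A1 tail to tail on chromosome 6 with 3.58 kb between them. COL6A1 and COL6A2 lay in tandem on chromosome 21 with 93.1 kb between them, and COL6A5 and COL6A6 in tandem on chromosome 3 with 75.5 kb between them. None of these 4 pairs had another gene name between them. Within 500 kb were also COL18A1 and COL6A1 (468 kb, 4 gene names between) and COL9A3 and COL20A1 (452 kb, 18 gene names between). COL19A1 and COL9A1 differed in exon number, 51 and 38, while the neighbours COL6A5 and COL6A6 were each other's closest partner in exon-size order (64.9%).

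Genes of the same exon number differed widely in length. COL1A1 spanned 17.5 kb with 51 exons, and 33.8% of the span was exonic. COL19A1 spread its 51 exons over 346 kb, of which 2.52% was exonic. COL7A1 packed 118 exons into 31.1 kb, 29.5% exonic, with a median intron of 119 bases. COL25A1 spread 37 exons over 492 kb, 1.16% exonic, and COL24A1 spread 60 exons over 427 kb. The longest introns were 253762 bases in COL23A1 and 250403 bases in COL25A1. Of 1979 collagen introns, 21.1% were under 200 bases, against 12% of the introns of other gene names. The median was 821 bases in collagens and 1570 bases in the other gene names.

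The assembly added few models to the collagens. A joined model shares splice junctions with a reference transcript and has an intron chain of its own. It was found in 4 of 44 collagens (9.09%, 95% interval 2.53% to 21.7%), against 12.5% of the other multi-exon gene names. Of the other gene names with at least 20 exons, 26% had one. A single reference transcript was found in 28 collagens. Over 1 reference transcript was found in 36.4% of the collagens and 37.2% of the others. Among the 16 collagens with at least 2 reference transcripts, 4 had a joined model (25%), against 27.8% of other such gene names. The interval around 9.09% includes 12.5% but not 26%, and the interval around 25%, from 7.27% to 52.4%, includes 27.8%.

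All 12 joined collagen models were rearrangements of reference introns. None of their introns lay outside the reference, 11 were made of 2 runs of reference introns and 1 of 3, and 0 of 12 intron chains was found in GENCODE. COL13A1, a membrane-spanning collagen of neuromuscular junctions, had 5 joined models beside 6 reference transcripts. COL4A6 had 3 beside 5, COL25A1 3 beside 4, and COL6A3 1 beside 5. Since abundance was not given, how much of each was present in the shRNA-induced or the negative control libraries is unknown.

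Compared with the nearest reference transcript, the joined models left out 20 distinct internal exons whole. All 20 had a length that is a multiple of 3, against 86.1% of all internal collagen exons, and 12 (60%) a multiple of 9, against 63.2%. Since every intron of the joined models is a reference intron, these lengths come from the reference. They are no separate result about the assembly. Of these exons, 13 coded at least 3 triplets. A further 3 exons, all in COL25A1, were present with other ends. The reading frame was shorter than that of the nearest reference in all 12 models, and 11 had fewer triplets.

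In COL4A6 all 3 joined models left out exon 41, of 99 bases and 10 whole triplets in a row, which 4 of the 5 reference transcripts contain. Exons 24 (51 bases) and 37 (72 bases) were left out in 2 joined models each. Their frames were 1657, 1651 and 1634 residues, against 1707 in the nearest reference, and they held 421, 413 and 413 triplets against 432.

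In COL6A3 the joined model lacked exons 3 and 4, of 618 and 603 bases, before the helix. Its frame was 2770 residues, against 3177 in the nearest reference, and both had 111 triplets. In the 5 reference transcripts, exon 3 was present in 1, exon 4 in 3 and exon 6, of 600 bases, in 4.

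In COL13A1 the left-out exons were short. Exon 34 (36 bases) was left out in 3 of the 5 joined models, as was exon 30 (45 bases). Frames were 639, 660, 651, 705 and 671 residues, against 717 in the nearest reference, with 153 to 164 triplets against 168. The model with the smallest change lacked exon 34 alone, which removes 4 triplets.

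In COL25A1, a collagen first known from amyloid plaques, models 1 and 2 lacked exon 8 (72 bases), and model 1 also lacked the next 2 exons, of 108 and 36 bases. Model 2 had an exon of 37 bases where the nearest reference has exon 27 of 81 bases, with the same 5' end. A length of 37 bases is no multiple of 3. The frame of model 2 was 564 residues with 110 triplets, against 654 residues with 155 triplets. Models 1 and 3 had frames of 582 and 649 residues.

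Exons counted as present in some reference transcripts of a collagen and skipped in others were mostly multiples of 3. They overlap with the exons that the joined models left out. The count held 26 such exons in 9 collagens. Of these, 23 (88.5%) had a length that is a multiple of 3, against 53.9% of 8547 skipped exons of other gene names. The count is not complete. Exons 5 and 6 of COL13A1, left out by joined models made only of reference introns, are not in it. Multiples of 9 numbered 15 (57.7%), against 18%. Both collagen shares lay near those of all internal collagen exons, 86.1% and 63.2%. Among them were exon 2 of COL2A1, of 207 bases, whose skipping is known from mature cartilage cells, and exons 6, 7 and 8 of COL11A2, of 78, 63 and 180 bases. The 3 that were no multiple of 3 were exon 2 of COL8A1 (62 bases) and exons 40 and 41 of COL6A5 (245 and 103 bases).

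A few models in the reference part carried boundaries that do not follow splice signals. The intron chain of the chosen transcript was found in GENCODE for 34 of 44 collagens (77.3%), against 91% of other multi-exon gene names. Of the 1979 introns, 1960 (99%) began with GT and ended with AG. Of the other 19, 11 were GC-AG and 8, in 6 genes, were neither. COL18A1 had a stretch of 9 bases written as an intron, which is among the 11 and raises its exon number. Its reference transcript of longest spliced length had 42 exons, against 43. COL4A4, COL13A1 and COL23A1 each held an exon of 6 or 7 bases beside an intron that was neither. These exons are included in their exon numbers.

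One such intron lies in COL4A5, the chain affected in X-linked Alport syndrome. Its 2 reference transcripts had the same 51 exons except exons 41 and 42, which were 188 and 137 bases in the longer transcript and 186 and 134 bases in the shorter. The intron between them began with AT and ended with TT in the longer transcript. GENCODE has 2 exons of 9 bases inside that intron. They are printed with capitals for the bases of the glycine codons that are split at their ends, and beside them the ends of the longer exons, with capitals for the added bases.
GENCODE exon, 9 bases, chrX:107913458-107913466, plus strand of hg19: GTcctacaG
GENCODE exon, 9 bases, chrX:107917975-107917983, plus strand of hg19: GTtttcaaG
End of COL4A5 exon 41 in the longer transcript, chrX:107911717-107911736, plus strand of hg19: gtcctcctgggagaccagGT
Start of COL4A5 exon 42 in the longer transcript, chrX:107920727-107920746, plus strand of hg19: AAGgtctaccaggtccagaa
The 5 added bases are the first 2 and the last 3 letters of the 18 bases that the 2 small exons hold, and the other 13 are missing from the model. The added length, 5 bases, is no multiple of 3. The longest reading frame was 1299 residues in the longer transcript and 1685 in the shorter. The longer transcript was used for COL4A5 in the counts, since it has as many exons and more bases, and the triplet counts of COL4A5 given above are from its frame of 1299 residues.

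Genes that work with collagens were set beside them by lists. A list of 34 other genes was written by hand, mostly of proteins with a collagen domain, such as complement C1q chains, collectins and ficolins. Of its 170 internal exons, 24 were of a repeat size (14.1%, 95% interval 9.26% to 20.3%), against 2.99% of all exons outside the collagens. MARCO, a scavenger receptor of macrophages, had 9 of the 24 among its 15 internal exons, and no other gene of the lists had 3 or more. Of 425 internal exons of 32 enzymes and chaperones that modify, fold, secrete or cross-link collagen, 4 were of a repeat size (0.941%), and of 206 of 11 collagen receptors 3 (1.46%). Joined models were found in 5 of 32 enzymes and chaperones (15.6%, 95% interval 5.28% to 32.8%, against 12.5% of the other multi-exon gene names), namely P4HA1, P4HA2 and P4HA3, the catalytic subunits of prolyl 4-hydroxylase, LOXL3, a lysyl oxidase relative, and CTAGE5, a collagen export factor. Among the 11 receptors they were found in 4 (36.4%, 10.9% to 69.2%), the integrin chains ITGA2 and ITGB1, the receptor kinase DDR1 and the inhibitory receptor LAIR1. In the collagen-domain list they were found in 1 of 34 (2.94%, 0.0744% to 15.3%), COLEC11. All 3 intervals include 12.5%.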

How the data were processed

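The 6 libraries of EndoC-βH1 cells were grouped by their titles, and 1 merged transcript file covering the whole series was analysed. Each of its 555595 deposited lines gives the first and last base of an exon, with other text tags and no score. TopHat2, Cufflinks and hg19 are named by the authors, per the submitters' processing notes. Tool versions, alignment settings and assembly filters are not given there. Depth per library is unknown, and 0 columns of per-sample values were available, so no test was run.

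Models were rebuilt with Python 3.11.15, using numpy 2.4.6, scipy 1.17.1, pysam 0.24.0 and matplotlib 3.10.9. The reading of frames, triplet runs and codon phase was checked on made-up transcripts with known answers. Reference transcripts are exact matches with a RefSeq name, and joined models are those of class j. Ties in exon number went to the longer transcript. Sequences come from GRCh37 (hg19). The GENCODE comparison used release 44 on GRCh37 and required identical introns. COL11A2 also lay on 6 haplotype copies, which were left out.

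Members and lists were chosen with earlier results of these data known. All collagens are named. In full are given members of neighbouring pairs, members with joined models, the 3 highest and 3 lowest in exon number and repeat-size share, and the first of each class. Of the lists, genes with a joined model or at least 3 repeat-sized exons are named. Other genes in the closing section were chosen after their values were seen.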

Additional observations from a re-analysis of the deposited data

How the results depend on the processing

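No paired analysis was possible because the file holds no value per library. The median of 48 exons was the same with the transcript of longest spliced length and with joined models included. The share of repeat-sized exons in collagens lay between 40.3% and 40.6% for other choices of transcript or model. It was 63.2% for any multiple of 9 bases, 24.5% for 54 bases alone, and 22.6% without the fibrillar class, a choice made after seeing the data. In the other gene names it was 2.99%, and 3.1%, 13.3% and 0.446% for genes with at least 20 exons, any multiple of 9 and 54 bases alone. Whole glycine codons began 82.8% of triplet exons with at least 5 triplets in a row and 81.1% with the transcript of longest reading frame, against 81.4%. Joined models were found in 25% of members with at least 2 reference transcripts, also chosen after seeing the data, against 9.09% of all members. In other genes the 12.5% became 5.21% for at least 2 joined models, 27.8% for at least 2 reference transcripts and 26% for at least 20 exons. Head-to-head collagen pairs numbered 2 within 300 bases and 3 within 5000 bases, where COL5A3 and RDH8 also faced each other over 2777 bases; other genes in a pair made up 7.75% and 14.6%. Exon lengths depend on the reference annotation, and the 44 genes limit every share of genes.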

Other observations

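Repeat-sized exons were rare as a leading feature outside the collagens. Among genes with at least 10 internal exons, at least 40% of the internal exons were of a repeat size in 17 of 41 collagens and in 5 of 6387 other genes. The 5 were MARCO with 60%, ANKDD1B with 58.3%, ANKDD1A with 53.8%, MUC19 with 51.5% and ANKRD6 with 42.9%. ANKDD1A, ANKDD1B and ANKRD6 encode ankyrin repeat proteins and MUC19 a mucin, so their repeats are not Gly-X-Y. Exons with at least 3 triplets in a row were most numerous outside the collagens in COLQ, the collagen tail of acetylcholinesterase, in HERC2, a ubiquitin ligase, and in MARCO, with 11 each. COLQ began 9 of its 11 with a whole glycine codon and HERC2 began 0 of 11 so, while MARCO began all 11 with a split glycine codon, the form seen in COL17A1 and in part of the type IV exons.

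Of the 44 collagen loci, as the assembly grouped models, 3 held another gene name, each a microRNA: MIR3606 in COL3A1, MIR711 in COL7A1 and MIR936 in COL17A1. Genes given a locus of their own within a collagen span were not counted. The same share over all loci of the file is not given, so whether 3 of 44 is many or few is unknown. The 44 genes lay on 17 chromosomes, with 6 on chromosome 6 and 5 each on chromosomes 1 and 2.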
